A study of Homo sapiens with 8 samples.

Results

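Immune checkpoint ligands on tumour cells were followed across 3 groups of SUM159 cells as 10 genes, found by their symbols in both deposited tables of 60595 genes each. They were CD274, PDCD1LG2, CD276, CD80, PVR, NECTIN2, CD47, LGALS9, NT5E and IDO1, and all 10 were listed. SUM159 is an established human breast cancer line of the triple-negative, mesenchymal kind. The analysed groups were cells with an shRNA against FOXO1 in olaparib (shFoxO1 olaparib), cells with a control shRNA in olaparib (shCon olaparib) and cells with the control shRNA in the solvent DMSO (shCon DMSO). Olaparib, an inhibitor of the repair enzymes PARP1 and PARP2, was given at 10 uM, and each group was taken after 3 days. All groups are infected cells of 1 line, per the labels, which do not say how many shRNA sequences were used. The fourth group of the labels, shFoxO1 with DMSO, was not analysed here, so the effect of the shRNA without the drug is not shown.

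Checkpoint ligands are surface or secreted proteins through which a cell restrains T cells, NK cells or macrophages. PD-L1 (gene CD274) and PD-L2 (PDCD1LG2) bind the PD-1 receptor of T cells, and interferon gamma acting through JAK kinases and the factor IRF1 is the best known inducer of CD274 in tumour cells. IDO1 and CD73 (gene NT5E) act as enzymes instead, IDO1 by turning tryptophan into kynurenine and CD73 by making adenosine from AMP. The proteins' amounts and their place on the cell surface are also set after transcription, and mRNA levels do not show them.

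A gene has a single FPKM value per group in each table, with no spread between the 2 libraries that the labels list for a group, so values below stand without SD. FPKM is a level per transcript length and sequencing depth, so levels of different genes can be set side by side. A gene is called higher or lower where the authors' deposited table has a q-value of 0.05 or less. Separate cultures for the libraries are not named in the labels, and the q-values may measure technical spread. FOXO1 itself stood at 17.5 FPKM in shFoxO1 olaparib cells against 89.2 FPKM in shCon olaparib cells (by the authors' deposited table q = 0.000244), the direction its label gives. The mesenchymal markers VIM, CD44, AXL, CAV1 and FN1 were present in the 3 groups, while of 9 breast epithelial and receptor markers CDH1 and PGR were listed at 0 and EPCAM, KRT19 and ESR1 were under 0.1 FPKM. The other 4, KRT8, KRT18, ERBB2 and GATA3, were expressed, KRT8 at 93.7 FPKM with shFoxO1 against 331 FPKM with shCon in olaparib, and at 326 FPKM in shCon olaparib cells against 255 FPKM in shCon DMSO cells. With shFoxO1, KRT8 was 3.53-fold, AXL 2.53-fold, CAV1 1.72-fold and ERBB2 1.70-fold lower, VIM was lower (log2 ratio -0.59) and FN1 was higher, while with olaparib KRT18 and GATA3 were lower, all called; what these shifts contribute to the members' values was not tested. Of 12 markers of leukocytes and endothelium, LYZ, MS4A1, CD3D and NKG7 were listed at 0 in the 3 groups, and in each comparison 10 were under 1 FPKM in both groups.

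The annotated starts of 3 of these genes are shown because they differ in the sequence motifs that were searched. RefSeq windows of GRCh38.p14 were taken from 250 bases before to 50 bases after a gene's start. Windows of 8 of the 10 genes were searched, 9 windows in all, since CD276 has a pair of starts. Capitals mark matches, on either strand, to the interferon-stimulated response element (2 copies of GAAA with any 2 bases between them) or the gamma-activated site (TTCNNNGAA), the motifs of interferon-activated factors. The windows are chr9:5450292-5450591 for CD274, chr17:27630938-27631237 for LGALS9 and chr6:85449833-85450132 for NT5E, each read on the plus strand.
CD274: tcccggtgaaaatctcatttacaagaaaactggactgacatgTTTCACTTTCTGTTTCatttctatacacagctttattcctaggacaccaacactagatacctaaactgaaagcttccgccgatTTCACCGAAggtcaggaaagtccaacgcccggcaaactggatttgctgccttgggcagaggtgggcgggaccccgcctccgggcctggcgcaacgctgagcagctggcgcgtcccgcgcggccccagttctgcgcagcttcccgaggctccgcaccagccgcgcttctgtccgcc
LGALS9: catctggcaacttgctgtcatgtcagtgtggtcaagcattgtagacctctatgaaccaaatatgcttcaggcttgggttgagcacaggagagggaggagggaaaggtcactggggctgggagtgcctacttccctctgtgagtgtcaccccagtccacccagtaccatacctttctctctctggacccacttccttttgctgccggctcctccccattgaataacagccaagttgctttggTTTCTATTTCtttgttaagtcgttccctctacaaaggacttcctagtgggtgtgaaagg
NT5E: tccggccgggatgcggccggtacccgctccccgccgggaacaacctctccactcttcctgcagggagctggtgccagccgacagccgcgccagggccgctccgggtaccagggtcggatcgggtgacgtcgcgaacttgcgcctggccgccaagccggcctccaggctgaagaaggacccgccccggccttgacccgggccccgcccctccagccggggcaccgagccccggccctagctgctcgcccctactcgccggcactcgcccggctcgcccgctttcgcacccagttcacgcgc

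CD274 held 2 response element matches, at bases 43 to 52 and 49 to 58 of its window, which overlap each other, and 1 gamma-activated site at bases 126 to 134. LGALS9 held 1 response element match at bases 242 to 251, ending at the annotated start. Of 35116 promoter windows of the same length, 3.57% held the response element and 7.66% the gamma-activated site. The windows of NT5E, CD276, CD47, PVR, NECTIN2 and CD80 held neither. IDO1 and PDCD1LG2 were left out of the search, so nothing can be said of motifs at their starts. Windows on chromosome 8, where IDO1 lies, were skipped, and PDCD1LG2 had no window of this length. The CD276 windows begin at 73684133 and 73684520, beyond the gene start at 73683944, so that start was not searched. On either strand, none of the 9 windows held the forkhead box O motif GTAAACA, which 3.42% of all windows held, or the kappaB motif, found in 5.91%. These are matches of letters in a short window and say nothing of binding. The NT5E window was 75% G and C, against 57.3% for CD274, 50.7% for LGALS9 and a median of 58.7% over all windows.

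The 10 genes spanned a wide range of levels. In shFoxO1 olaparib cells CD276 had the highest level, 394 FPKM, above 98.5% of the genes tested in that table, followed by NT5E at 112 FPKM. In shCon olaparib cells PVR and CD276 led at 39.9 and 39.7 FPKM. In shCon DMSO cells CD276 and PVR led at 119 and 108 FPKM, followed by NECTIN2 at 44.0, NT5E at 38.5 and CD47 at 24.9 FPKM. The PD-1 ligands were far lower in shCon DMSO cells, PDCD1LG2 at 5.44 and CD274 at 4.90 FPKM, and LGALS9 and IDO1 stood at 1.05 and 0.659 FPKM. CD80, which encodes the B7-1 ligand of CD28 and CTLA-4, was listed at 0 in the 3 groups. With 1 value a group, neighbours in this order cannot be told apart beyond their spread.

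**Figure D1:**
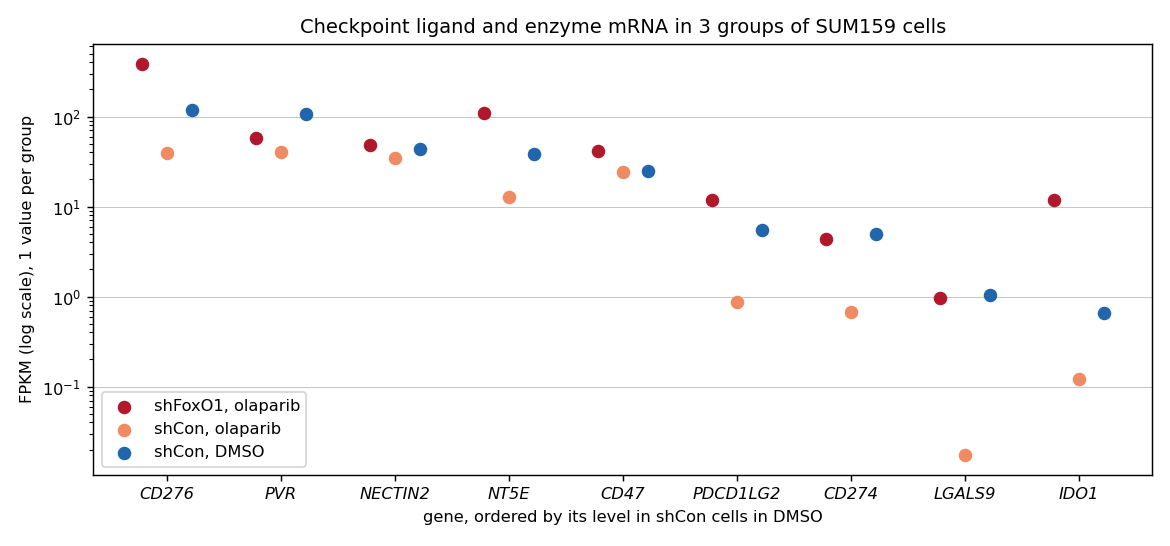
Level of each gene in 3 groups, as FPKM on a log axis, with 1 point per group and the genes ordered by their level in shCon DMSO cells. Values of the shFoxO1 group were divided by the factor between the tables (1.02), and CD80, listed at 0, is not drawn. CD276 reaches the highest level, 388 FPKM on this scale, and LGALS9 the lowest, 0.0173 FPKM in shCon olaparib cells.

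The first comparison asked what olaparib changed in control cells. Of the 10 genes, 6 fell in shCon olaparib cells against shCon DMSO cells, none rose, CD47 and NECTIN2 were not called, and IDO1 and CD80 were not tested by the authors. Across the table, the lower calls made up 23.1% of 14841 tested genes and the higher calls 15.6%. The 6 falls were each at least 2-fold, and 9.74% of all tested genes were called lower by that much. Over the 8 tested members the median log2 ratio was -1.59, and over all tested genes it was -0.07. In bulk RNA, fewer cells that express a gene and less of its RNA per cell cannot be told apart.

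The second comparison asked what the shRNA against FOXO1 changed under the drug. Of the 10 genes, 8 rose in shFoxO1 olaparib cells against shCon olaparib cells, none fell, NECTIN2 was not called and CD80 was not tested. Across the table, the higher calls made up 22.6% of 14660 tested genes and the lower calls 19.8%. A rise of at least 2-fold was seen in 6 members, and in 11.8% of tested genes. The median log2 ratio was 3.11 over the 9 tested members, 1.70 with a pseudocount of 1 FPKM, and 0.01 over all tested genes. Both comparisons use the shCon olaparib group, so a low or high value in that group moves both ratios of a gene in opposite directions.

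**Figure D2:**
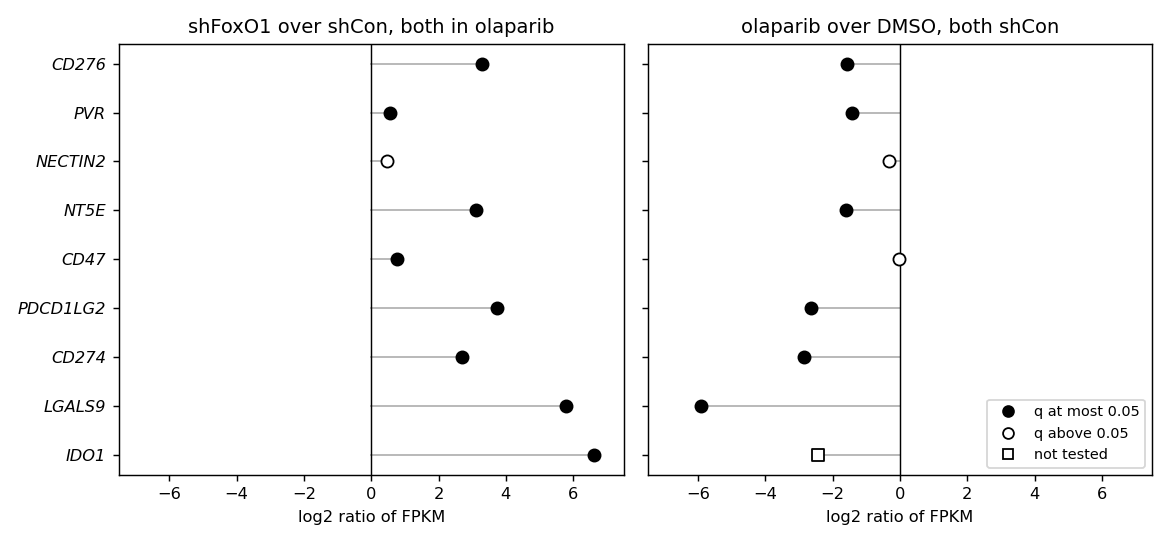
Log2 ratio of FPKM for each gene, shFoxO1 over shCon in olaparib on the left and olaparib over DMSO in shCon cells on the right. Filled points passed a q-value of 0.05, open points did not, and the open square was not tested; IDO1 had the largest ratio on the left, 6.61, and LGALS9 the lowest on the right, -5.93.

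The PD-1 ligands were low in control cells under olaparib and higher in the other groups. CD274, the PD-L1 gene (ENSG00000120217, chromosome 9, 5450542 to 5470554, GRCh38.p14), stood at 0.675 FPKM in shCon olaparib cells and 4.90 FPKM in shCon DMSO cells. Its level was 7.26-fold lower with the drug (log2 ratio -2.86, by the authors' deposited table q = 0.00341). In the second table CD274 was at 4.49 FPKM in shFoxO1 olaparib cells and 0.688 FPKM in shCon olaparib cells, a 6.53-fold rise (log2 ratio 2.71, by the authors' deposited table q = 0.00594). The level was thus low in 1 of the 3 groups, the control cells in olaparib, where CD274 lay above 3.80% of tested genes. Because that level is under 1 FPKM, a pseudocount of 1 FPKM brought the log2 ratios to -1.82 with the drug and 1.70 with shFoxO1.

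PDCD1LG2, the PD-L2 gene (ENSG00000197646, chromosome 9, 5510531 to 5571282), starts 40.0 kb beyond the end of CD274. Its level was 0.872 FPKM in shCon olaparib cells against 5.44 FPKM in shCon DMSO cells (log2 ratio -2.64, by the authors' deposited table q = 0.0225). This call was lost when the p-values were adjusted over every listed gene (q = 0.0920). With shFoxO1 under olaparib PDCD1LG2 was at 11.9 FPKM, against 0.888 FPKM with shCon, a 13.4-fold rise (log2 ratio 3.74, by the authors' deposited table q = 0.00143). With a pseudocount of 1 FPKM the log2 ratios were -1.78 with the drug and 2.77 with shFoxO1.

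CD274 and PDCD1LG2 lie in 1 cluster on chromosome 9, and the genes around them were read for comparison in a window of 500 kb to either side of the CD274 start, a width chosen after the values were seen. JAK2, the kinase of the interferon gamma receptor, was at 7.45 FPKM with shFoxO1 against 5.26 FPKM with shCon (log2 ratio 0.50, by the authors' deposited table q = 0.0231), and at 5.17 FPKM in shCon olaparib cells against 2.86 FPKM in shCon DMSO cells (log2 ratio 0.85, q = 0.00165). PLGRKT, a plasminogen receptor just upstream of CD274, was not called with shFoxO1 (13.6 against 10.6 FPKM) and was lower with olaparib (10.4 against 16.3 FPKM; by the authors' deposited table q = 0.0156). RIC1 rose with shFoxO1 to 8.02 FPKM, against 3.39 FPKM with shCon (by the authors' deposited table q = 0.00735), and ERMP1 was not called in either table. The authors' tables list CD274, PDCD1LG2, RIC1 and ERMP1 with 1 shared region; whether any reads are shared cannot be read from this.

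**Figure D3:**
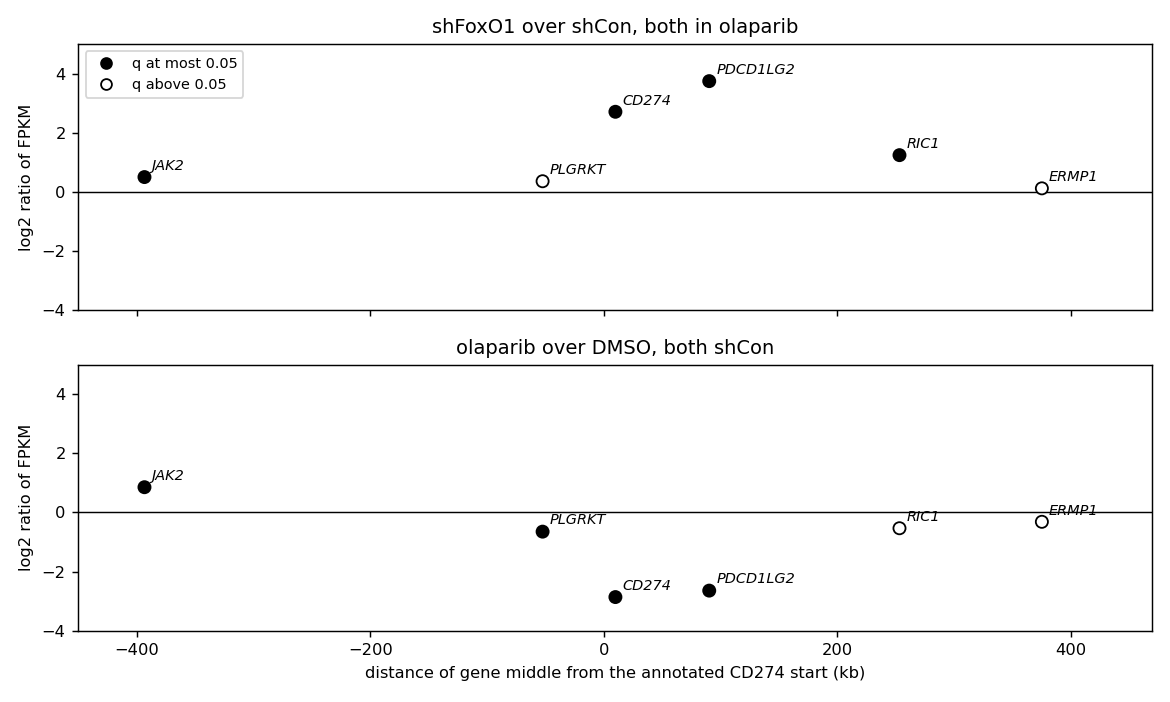
Log2 ratio of FPKM of tested genes within 500 kb of the annotated CD274 start, by the distance of the gene's middle from that start in kb, with shFoxO1 over shCon in olaparib above and olaparib over DMSO in shCon cells below. Filled points passed a q-value of 0.05; CD274 and PDCD1LG2 have the highest ratios of the upper panel, 2.71 and 3.74, and the lowest of the lower panel, -2.86 and -2.64.

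CD276, which encodes B7-H3, a B7 family protein that restrains T cells through a receptor not yet settled (ENSG00000103855, chromosome 15, 73683944 to 73714514), was the most abundant member in shFoxO1 olaparib cells. It was at 39.7 FPKM in shCon olaparib cells against 119 FPKM in shCon DMSO cells, lower by 2.99-fold (log2 ratio -1.58, by the authors' deposited table q = 0.000284). In the other table it was at 394 FPKM in shFoxO1 olaparib cells and 40.4 FPKM in shCon olaparib cells, a 9.75-fold rise (log2 ratio 3.29, by the authors' deposited table q = 0.000244). These q-values are the smallest each table holds, shared by 2610 and 3001 genes. Unlike the PD-1 ligands, CD276 was well above 1 FPKM in the 3 groups.

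PVR and NECTIN2 both lie on chromosome 19, and their proteins, CD155 and CD112, bind TIGIT, an inhibitory receptor, and CD226, an activating one, on T and NK cells. PVR (ENSG00000073008, 44643910 to 44666162) was at 39.9 FPKM in shCon olaparib cells and 108 FPKM in shCon DMSO cells, lower by 2.69-fold (log2 ratio -1.43, by the authors' deposited table q = 0.000284). With shFoxO1 PVR was at 59.3 FPKM against 40.6 FPKM with shCon, a rise of 1.46-fold (log2 ratio 0.55, by the authors' deposited table q = 0.00549; 0.32 after quantile normalization). NECTIN2 (ENSG00000130202, 44846297 to 44889223) passed in neither table. It stood at 34.9 FPKM in shCon olaparib cells and 44.0 FPKM in shCon DMSO cells (by the authors' deposited table q = 0.339), and at 49.1 FPKM with shFoxO1 and 35.4 FPKM with shCon (q = 0.110). So PVR, unlike NECTIN2, was called in both tables, but a difference between these genes was not tested.

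CD47, the signal that keeps macrophages from engulfing a cell by binding SIRPA (ENSG00000196776, chromosome 3, 108043091 to 108091031), was at 24.3 FPKM in shCon olaparib cells and 24.9 FPKM in shCon DMSO cells (by the authors' deposited table q = 0.905). With shFoxO1 it was at 42.3 FPKM against 24.7 FPKM with shCon, a 1.71-fold rise (log2 ratio 0.78, by the authors' deposited table q = 0.000863). It was called with the shRNA and not with the drug, and whether these effects differ in size was not tested.

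LGALS9 encodes galectin-9, a secreted lectin that binds TIM-3 (ENSG00000168961, chromosome 17, 27631188 to 27649560). It was at 0.0173 FPKM in shCon olaparib cells and 1.05 FPKM in shCon DMSO cells, and at 0.981 FPKM in shFoxO1 olaparib cells against 0.0176 FPKM in shCon olaparib cells in the other table. The log2 ratios, -5.93 with the drug and 5.80 with shFoxO1, shrank to -1.01 and 0.96 with a pseudocount of 1 FPKM. Both calls (q = 0.000284 and 0.000244, each from the authors' deposited table) had test statistics near 0, at -0.156 and 0.134. Of the 2610 and 3001 genes at the smallest p-value, 33 and 40 had a statistic under 1 in size. The near-identical copies LGALS9B and LGALS9C were listed at 0, and how reads were divided between the copies is not given in the sources used here, so the LGALS9 value is uncertain.

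NT5E, the CD73 gene (ENSG00000135318, chromosome 6, 85450083 to 85495784), was at 12.8 FPKM in shCon olaparib cells and 38.5 FPKM in shCon DMSO cells, lower by 3.02-fold (log2 ratio -1.59, by the authors' deposited table q = 0.000284). It was at 112 FPKM in shFoxO1 olaparib cells and 13.0 FPKM in shCon olaparib cells, an 8.61-fold rise (log2 ratio 3.11, by the authors' deposited table q = 0.000244). Its level was above 93.6% of tested genes in shFoxO1 olaparib cells, 55.7% in shCon olaparib cells and 79.1% in shCon DMSO cells.

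IDO1 (ENSG00000131203, chromosome 8, 39913891 to 39928790) had the largest ratio of the members with shFoxO1. It was at 12.1 FPKM in shFoxO1 olaparib cells and 0.123 FPKM in shCon olaparib cells (log2 ratio 6.61, by the authors' deposited table q = 0.00708), a log2 ratio of 3.54 with a pseudocount of 1 FPKM. In the first table it was at 0.121 FPKM in shCon olaparib cells and 0.659 FPKM in shCon DMSO cells and was not tested, so nothing can be said of a change with the drug. The IDO1 call with shFoxO1 had a test statistic of 1.37, beside 1.28 for NECTIN2, which was not called. IDO1 is listed in a region shared with 5 other genes, LGALS9 with 6 and PVR with 8, and whether reads are shared was not tested.

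Cells with the shRNA in olaparib and control cells in DMSO were not compared by the authors, and the tables were scaled separately, so the following ratios have no test. On the first table's scale, shFoxO1 olaparib cells over shCon DMSO cells came to 18.0 for IDO1 (11.9 and 0.659 FPKM), 3.26 for CD276 (388 and 119 FPKM) and 2.85 for NT5E (109.8 and 38.5 FPKM). The IDO1 ratio rests on a shCon DMSO level under 1 FPKM, so its size is uncertain. The ratios were 2.15 for PDCD1LG2 and 1.67 for CD47. For NECTIN2, LGALS9 and CD274 they were 1.10, 0.918 and 0.900, and for PVR 0.542 (58.3 and 107.5 FPKM). PVR was therefore the member whose level in shFoxO1 olaparib cells lay furthest below that in untreated control cells.

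The genes whose pair of log2 ratios lay nearest to that of a member were sought among 13316 genes tested in both tables with a mean of at least 1 FPKM over the 3 groups, by Euclidean distance. NT5E was among the 3 nearest genes to CD276, at a distance of 0.181. ADAMTS6 and SAMHD1 were nearest to both CD276 (0.0499 and 0.119) and NT5E (0.148 and 0.125), and VAMP3 was the third for NT5E (0.157). The genes nearest to PDCD1LG2 were AC004585.1, LOXL3 and ZC3HAV1, at 0.0736, 0.0993 and 0.222. ECM1, ITPA and ABCB8 were nearest to PVR, all within 0.0265. Nearest to CD274 were AC008012.1, AC026740.1 and AC090772.4, within 0.106, each at 0.530 FPKM or less in shCon olaparib cells. LGALS9 had more distant neighbours, AL805961.1, IGFBP7 and DHRS2 at 0.239 to 0.557. With 3 groups, such likeness is easily reached.

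Of 23 other checkpoint ligands, 15 were tested in each table. With olaparib 2 rose and 3 fell (median log2 ratio 0.01), and with shFoxO1 7 rose and 3 fell (median 0.23). The higher calls with shFoxO1 were 46.7% of the tested genes of this list and the lower ones 20%, against 22.6% and 19.8% of all tested genes. With olaparib the higher calls were 13.3% and the lower ones 20%, against 15.6% and 23.1% of all tested genes. VSIR, the gene of the T cell inhibitor VISTA, was at 75.9 FPKM in shCon olaparib cells and 48.3 FPKM in shCon DMSO cells (log2 ratio 0.65, by the authors' deposited table q = 0.0274). It was at 7.94 FPKM with shFoxO1 and 77.1 FPKM with shCon, a 9.71-fold fall (log2 ratio -3.28, by the authors' deposited table q = 0.000244). CEACAM1, a ligand of TIM-3, was at 8.46 FPKM with shFoxO1 and 0.275 FPKM with shCon (log2 ratio 4.95), and at 0.269 FPKM in shCon olaparib cells and 0.906 FPKM in shCon DMSO cells (log2 ratio -1.75). CD24, which binds Siglec-10 on macrophages, rose with shFoxO1 to 38.5 FPKM, against 7.41 FPKM with shCon. TNFRSF14, the ligand of BTLA, rose to 6.28 FPKM against 1.94 FPKM. The other 2 lower calls with shFoxO1, named after their values were seen, were LGALS1 and NECTIN3. LGALS1, the gene of the T cell inhibitor galectin-1 and the most abundant of the list, was at 778 FPKM with shFoxO1 and 1659 FPKM with shCon (log2 ratio -1.09), and NECTIN3, a relative of PVR, at 10.9 FPKM with shFoxO1 and 18.2 FPKM with shCon (log2 ratio -0.74). BTN3A3 rose with olaparib, to 13.0 FPKM against 5.46 FPKM in DMSO. HLA-E, the ligand of NKG2A, chosen after its values were seen, was not called in either table, at 124 FPKM with shFoxO1 against 119 FPKM with shCon, and at 117 FPKM in shCon olaparib cells against 106 FPKM in shCon DMSO cells. The 5 genes listed at 0 in the 3 groups were CD86, the partner of CD80, and CD200, FGL1, HHLA2 and VTCN1.

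Among 8 costimulatory and adhesion genes, 4 were tested. All 4 tested rose with shFoxO1 (median log2 ratio 1.43), where 22.6% of all tested genes did, while 2 fell with olaparib and 2 were not called (median -1.002). The falls with olaparib were 50% of the tested genes of this list, against 23.1% of all tested genes. CD40 was at 2.44 FPKM with shFoxO1 and 0.231 FPKM with shCon, and at 0.227 FPKM in shCon olaparib cells and 1.58 FPKM in shCon DMSO cells. ICAM1 was at 31.2 FPKM with shFoxO1 and 10.7 FPKM with shCon, and at 10.5 FPKM in shCon olaparib cells and 27.6 FPKM in shCon DMSO cells. CD58 and TNFSF9 rose with shFoxO1, to 26.6 FPKM against 11.0 FPKM and to 1.38 FPKM against 0.551 FPKM. The other 4 genes of this list were not tested with shFoxO1.

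Of 14 receptors of these ligands that immune cells carry, PDCD1, CTLA4, TIGIT, ICOS, BTLA and SIRPG were listed at 0 in the 3 groups, and the authors tested 3 of them with olaparib and 2 with shFoxO1. SIRPA, the CD47 receptor, was the exception in level, at 16.8 FPKM with shFoxO1 against 30.6 FPKM with shCon (log2 ratio -0.86, by the authors' deposited table q = 0.000244), and at 30.1 FPKM in shCon olaparib cells against 26.3 FPKM in shCon DMSO cells, not called. The summed level of the 12 leukocyte and endothelial markers was 42.2 FPKM with shFoxO1 and 15.8 FPKM with shCon, of which CD68, a lysosomal protein, made up 40.0 and 15.2 FPKM. In the first table the sums were 15.6 FPKM with olaparib and 20.6 FPKM in DMSO. PECAM1 rose with shFoxO1, to 1.80 FPKM against 0.0937 FPKM. PTPRC, the pan-leukocyte gene, was listed at 0 with shFoxO1, against 0.144 FPKM with shCon, and was at 0.142 FPKM in shCon olaparib cells and 1.34 FPKM in shCon DMSO cells; it was not tested. What these markers contribute to the members' values was not tested.

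Of 21 genes known to regulate CD274 transcription, all were tested, and 12 rose and 2 fell with shFoxO1 (median log2 ratio 0.50), while 4 rose and 8 fell with olaparib (median -0.40). The shares with shFoxO1, 57.1% higher and 9.52% lower, stand beside 22.6% and 19.8% of all tested genes. With olaparib the shares were 19% higher and 38.1% lower, beside 15.6% and 23.1% of all tested genes. IRF1, the factor that acts on CD274 downstream of interferon gamma, was at 94.7 FPKM with shFoxO1 and 16.3 FPKM with shCon (log2 ratio 2.54), and at 16.0 FPKM in shCon olaparib cells and 51.3 FPKM in shCon DMSO cells (log2 ratio -1.68). The chains of the interferon gamma receptor went different ways. IFNGR2 was at 61.3 FPKM with shFoxO1 and 15.2 FPKM with shCon, and at 14.9 FPKM in shCon olaparib cells and 36.3 FPKM in shCon DMSO cells. IFNGR1, chosen after its values were seen, was at 58.6 FPKM with shFoxO1 and 117 FPKM with shCon, and at 115 FPKM in shCon olaparib cells and 74.7 FPKM in shCon DMSO cells, called in both tables. RELB, an NF-kB subunit, was at 29.6 FPKM with shFoxO1 and 11.3 FPKM with shCon, and at 11.1 FPKM in shCon olaparib cells and 43.2 FPKM in shCon DMSO cells. NFKB1, another subunit, was lower with olaparib, at 24.8 FPKM against 58.2 FPKM in DMSO. With shFoxO1 NFKB1 was not called, at 29.5 FPKM against 25.2 FPKM (by the authors' deposited table q = 0.244). RELA, a further subunit, rose with shFoxO1 to 63.4 FPKM against 34.1 FPKM, and fell with olaparib to 33.5 FPKM against 77.4 FPKM. STAT3, chosen because the title of the study names it, was not called in either table.

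Of 15 genes whose products handle PD-L1 or CD47 protein, 13 were tested; 4 rose and 4 fell with shFoxO1, and 2 rose and 5 fell with olaparib. Calls with shFoxO1 were thus 30.8% in each direction, against 22.6% higher and 19.8% lower over all tested genes. Calls with olaparib were 15.4% higher and 38.5% lower, against 15.6% and 23.1% over all tested genes. CMTM6, which keeps PD-L1 at the cell surface, was at 19.0 FPKM with shFoxO1 and 36.6 FPKM with shCon (log2 ratio -0.95, by the authors' deposited table q = 0.000244). With olaparib it was at 36.0 FPKM, against 23.0 FPKM in DMSO (log2 ratio 0.64, by the authors' deposited table q = 0.00144). Its relative CMTM4 was at 13.0 FPKM with shFoxO1 and 31.2 FPKM with shCon, and at 30.7 FPKM in shCon olaparib cells and 19.1 FPKM in shCon DMSO cells, called in both tables. CMTM3, another relative, was the remaining lower call beside GSK3B, a kinase that marks PD-L1 for degradation, which fell with shFoxO1 to 8.74 FPKM against 21.8 FPKM. COPS5, which removes ubiquitin from PD-L1 and so stabilises it, rose with shFoxO1 to 97.7 FPKM against 46.7 FPKM (log2 ratio 1.07, by the authors' deposited table q = 0.000244). ZDHHC3, which stabilises PD-L1 by palmitoylation, rose to 55.9 FPKM against 26.8 FPKM (log2 ratio 1.06, by the authors' deposited table q = 0.0101). Genes known to stabilise PD-L1 were therefore called in both directions. SPOP, whose product leads PD-L1 to degradation, rose to 60.6 FPKM against 38.6 FPKM. CMTM3, ZDHHC3 and SPOP were named after their values were seen. HIP1R, which routes PD-L1 to lysosomes, was at 116 FPKM with shFoxO1 and 19.1 FPKM with shCon, and at 18.8 FPKM in shCon olaparib cells and 41.0 FPKM in shCon DMSO cells. QPCTL, which modifies CD47 for SIRPA binding and was chosen after its values were seen, was not called in either table.

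Among 16 listed tryptophan and kynurenine genes, 11 were tested. With shFoxO1 2 rose (18.2%) and 1 fell (9.09%), against 22.6% higher and 19.8% lower over all tested genes. With olaparib 2 rose (18.2%) and 5 fell (45.5%), against 15.6% higher and 23.1% lower over all tested genes. WARS, the tryptophanyl-tRNA synthetase induced by interferon gamma, was at 355 FPKM with shFoxO1 and 76.8 FPKM with shCon, and at 75.5 FPKM in shCon olaparib cells and 226 FPKM in shCon DMSO cells. KYNU, which acts on kynurenine, rose with shFoxO1 to 11.1 FPKM against 4.28 FPKM, and with olaparib to 4.21 FPKM against 2.25 FPKM in DMSO. SLC7A5, a tryptophan importer, fell in both comparisons, to 48.7 FPKM with shFoxO1 against 117 FPKM with shCon, and to 115 FPKM with olaparib against 334 FPKM in DMSO. IDO2 and TDO2 are the other tryptophan-opening enzymes, both chosen after their values were seen. IDO2 was not tested in either comparison, listed at 0 in olaparib with either shRNA and at 0.0344 FPKM in DMSO. TDO2 was tested and not called in either comparison, at 0.966 FPKM with shFoxO1 and 1.13 FPKM with shCon. With olaparib TDO2 was at 1.11 FPKM, against 0.330 FPKM in DMSO, a 3.36-fold ratio that missed the threshold (by the authors' deposited table p = 0.024 and q = 0.0598).

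Of 16 adenosine genes, 8 were tested with shFoxO1, of which 1 rose and 2 fell, and 7 with olaparib, of which 1 rose and 3 fell. With shFoxO1 these were 12.5% and 25%, against 22.6% higher and 19.8% lower over all tested genes. With olaparib these were 14.3% and 42.9%, against 15.6% higher and 23.1% lower over all tested genes. ENTPD1, the CD39 enzyme that supplies AMP to CD73, was at 0.567 FPKM with shFoxO1 and 1.87 FPKM with shCon (log2 ratio -1.72, by the authors' deposited table q = 0.00266), and at 1.83 FPKM in shCon olaparib cells and 0.989 FPKM in shCon DMSO cells (log2 ratio 0.89, q = 0.0329). The adenosine receptor gene ADORA2B fell with shFoxO1, to 1.22 FPKM against 2.78 FPKM. ADK, the kinase that removes adenosine, rose with shFoxO1 to 50.2 FPKM against 29.9 FPKM. With olaparib ADK fell, to 29.4 FPKM against 39.4 FPKM in DMSO. The other falls with olaparib were SLC29A2, to 2.18 FPKM against 6.09 FPKM, and SLC29A1, to 41.2 FPKM against 61.9 FPKM. CD39 mRNA thus lay between 0.567 and 1.87 FPKM in cells where CD73 mRNA lay between 12.8 and 112 FPKM.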

How the data were processed

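Values were taken as deposited; no library was re-processed. The submitters' processing notes name HISAT2 2.1.0, Cufflinks 2.2.1, CASAVA 1.4 and hg38, with no roles or settings. Per the file headers, a gene's row holds 1 FPKM value per group by the authors, the score of their test (its statistic), the p-value with its q-value, and whether it was tested. An FPKM is a fragment count over transcript length and library size, so it depends on the authors' gene models. The labels list 2 libraries a group; no per-library values were used here, so depth is unknown, and limma, named in the design as the test if such values existed, could not be fitted. Calls are q-values of at most 0.05 in the authors' deposited table, each read within its own table.

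Log2 ratios were computed from the FPKM values with no pseudocount (Python 3.11.15, pandas 2.3.3, numpy 2.4.6). The shCon olaparib group stands in both tables, and the median ratio of its second to its first value was 1.02 over 13688 genes of at least 1 FPKM. Levels set across tables were divided by this factor and not tested. The script was tested on simulated ratios. The 10 genes and the pathway lists were chosen with earlier results of these data known. The rule for named genes took the 10 members, FOXO1, up to 4 genes of each list by smallest q, then by largest ratio, and the 3 nearest genes in pattern; every other gene named, including those around CD274, untested genes listed at 0, PTPRC and STAT3, was chosen outside it, with values known. Alternatives were a stricter threshold, adjustment over every listed gene, a minimum of 1 FPKM, a minimum of 2-fold, pseudocounts of 1 and 0.1 FPKM, quantile normalization and centring. Positions and promoter windows are from RefSeq, GRCh38.p14. The number of value columns of other samples was 0.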

Additional observations from a re-analysis of the deposited data

How the results depend on the processing

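No paired analysis was possible because the tables give 1 value per group, with no columns per library, and leaving out a replicate was not run for the same reason. The counts of members called kept within 1.5 times under a q-value of 0.01, adjustment over every listed gene, a mean of at least 1 FPKM and a minimum of 2-fold: 5 to 6 fell with olaparib and 6 to 8 rose with shFoxO1. The call of PDCD1LG2 with olaparib was lost under the first 2 of these, and those of LGALS9 in both tables under the third. The calls in the pathway lists numbered 80 in both tables together and 46 with the 2-fold minimum. No share was computed for the pooled lists, so these counts show only the effect of the setting. Over the 14841 genes tested with olaparib, the minimum cut higher calls from 2311 to 1266 and lower calls from 3433 to 1445. Over the 14660 genes tested with shFoxO1, it cut them from 3314 to 1737 and from 2904 to 1731. With a pseudocount of 1 FPKM the median log2 ratio of the tested members with shFoxO1 was 1.70 in place of 3.11. Of 68 single ratios recomputed, 54 kept their sign and moved by less than 1.5-fold, and none of a called gene changed sign; CD47, not called with olaparib, went to 0.18 after quantile normalization and 0.03 after centring, from -0.04. LGALS9 moved most, between -7.11 and -1.01 with olaparib and between 0.96 and 6.98 with shFoxO1. Depth is unknown, so levels under 1 FPKM carry an error that cannot be stated.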
